A study of Mus musculus with 66 samples.

Results

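The genes described here are 10 stress- and growth-responsive transcription factor and early response genes: the FOS family members Fos, Fosb, Fosl1 and Fosl2, the JUN family members Jun, Junb and Jund, and Atf3, Egr1 and Ier3. They were taken by gene symbol, after the Ensembl gene identifiers of the count tables were matched to GENCODE M21 symbols. All 10 were found among the 39179 genes counted, of which 37693 had a symbol.

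The study compared ways of making RNA-seq libraries from very little RNA, in BC57, a mouse bladder cancer cell line grown in DMEM with 10% fetal bovine serum, and in normal urothelium, the epithelial lining of the bladder, taken from 9 mice. Each was divided in 2: one portion was frozen in liquid nitrogen (FF), the other was fixed for 24 hours in buffered formalin and embedded in paraffin (FFPE). Frozen and fixed material went through different RNA extraction kits, so that extraction and fixation cannot be told apart. RNA from the 4 resulting samples went into Ovation libraries, a random-primed total RNA kit with depletion of ribosomal sequences (50 pg, 250 pg and 2 ng of RNA), and into SMARTer libraries, a total RNA kit for pico amounts (250 pg and 2 ng). The frozen samples also went into poly(A) libraries (1 µg), which the study took as its reference. Each of the 22 groups held 3 libraries, 66 in all. The 3 libraries of a group are repeat libraries of 1 sample: BC57 stands for 1 cell line grown in culture, and the labels do not say whether the RNA of the 9 mice was pooled. The p-values below therefore measure the spread between libraries, which may be technical, and not the spread between cultures or animals.

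FOS and JUN proteins pair to form the dimeric factor AP-1, which binds TGACTCA sites. Transcription of Fos, Fosb, Egr1, Atf3 and Ier3 rises within minutes of serum, growth factors or stress and fades quickly, because the proteins that switch the genes on are already present in the cell and the transcripts are short-lived. Handling of tissue before freezing or fixation is a well-known trigger of these genes, and AP-1 members are known for roles in epithelial growth and wound response.

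The stretch before the start site is shown for the members whose RefSeq promoter window holds the short core TGACG, because this core of the cAMP response element is a classic feature of early response promoters. Windows were matched for 8 of the 10 members, without Fosl1 and Egr1, and 4 of the 8 held TGACG in the 250 bases before the start, against 17.8% of 32851 mouse windows. Each run below gives the 120 bases before the RefSeq start (GRCm38.p6), 5′ to 3′ on the gene's strand, and capitals mark TGACG, the SP1 box GGGCGG and TATAAA, on either strand. The stretches are chr12:85473770-85473889 on the plus strand for Fos, and on the minus strand chr7:19310046-19310165 for Fosb, chr8:84978749-84978868 for Junb and chr1:191183334-191183453 for Atf3. The Atf3 stretch lies within the longer GENCODE model of the gene, mostly in an intron.
Fos: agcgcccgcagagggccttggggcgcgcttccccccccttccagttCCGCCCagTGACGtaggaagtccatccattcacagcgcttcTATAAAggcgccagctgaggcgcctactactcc
Fosb: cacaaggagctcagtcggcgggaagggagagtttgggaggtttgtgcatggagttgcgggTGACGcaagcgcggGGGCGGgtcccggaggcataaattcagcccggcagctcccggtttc
Junb: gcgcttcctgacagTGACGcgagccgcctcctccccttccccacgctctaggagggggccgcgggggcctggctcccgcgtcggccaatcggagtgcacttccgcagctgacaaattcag
Atf3: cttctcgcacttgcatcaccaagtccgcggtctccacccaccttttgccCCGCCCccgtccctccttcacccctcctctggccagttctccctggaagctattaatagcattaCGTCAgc
In Fos, which has a further copy farther upstream, and in Fosb the core lay at nearly the same distance from the start (bases -66 to -62 and -60 to -56). GGGCGG was found in 6 of the 8 windows (32.7% of all windows) and TATAAA in Fos alone (12.4%). The EGR1 site GCGGGGGCG was found in Fosb and Fosl2 (2.57% of all windows), and the variant GCGTGGGCG in none of the 8 (0.536%). The searched window of Fosl2 lies within the GENCODE model of the gene, which starts farther upstream. Neither TGACTCA (4.46%), nor the full element TGACGTCA, which contains the core (1.55%), nor a CArG box, the serum response factor site (1.47%), was found in the 8 windows. Bases farther upstream were not searched, and Fosl1 and Egr1 were not searched at all, so such sites may lie there.

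The 36 Ovation libraries held 928722 to 4706030 counts each, the 24 SMARTer libraries 651879 to 7152648, and the 6 poly(A) libraries 18499591 to 36187226. Levels are given as CPM, read counts relative to the library's total, scaled between all 66 libraries by the trimmed mean of M-values (TMM). Log2 differences come from edgeR fits of only the groups compared, which are scaled within those groups, so that they need not equal the ratio of the CPM values. A gene is called at an adjusted p under 0.05. The libraries numbered 3 of fixed urothelium made with SMARTer stood apart: at 2 ng and 250 pg they had 780106 and 651879 counts and a summed level of the 10 genes of 96.1 and 132 CPM, against 446 to 497 and 359 to 441 CPM in the other libraries of their groups. At 2 ng, Pearson's r of log levels between library 3 and libraries 1 and 2 was 0.680 and 0.677 in urothelium. In BC57, where library 3 stood apart less, it was 0.920 and 0.921. Between libraries 1 and 2 it was 0.974 in urothelium and 0.985 in BC57. Library 3 of frozen urothelium made with Ovation at 250 pg also stood apart, though less than the fixed urothelium ones. Its r with libraries 1 and 2 was 0.918 and 0.916, against 0.974 between those. Tests that use the fixed urothelium SMARTer libraries are given with and without the SMARTer FFPE libraries numbered 3 of both samples.

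In the poly(A) libraries, 3 of the 4 FOS family genes were higher in BC57 and the fourth was lower. Fos, the founding AP-1 subunit, stood at 69.7, 65.7 and 70.3 CPM in BC57 and at 32.97, 34.5 and 34.8 CPM in urothelium (log2 difference 1.25 ± 0.05 SE, edgeR adjusted p = 1.96e-16). Fosb, its close relative, stood at 32, 26.8 and 32.7 CPM against 1.84, 2.50 and 2.27 CPM (4.03 ± 0.10, adjusted p = 2.04e-19). Fosl1, which encodes FRA1, a subunit known from invasive carcinoma cells, stood at 50.96, 47.2 and 49.99 CPM against 0.832, 1.57 and 1.56 CPM (5.41 ± 0.10, adjusted p = 1.24e-21). The groups did not overlap for any of these genes, and Fosl1 was 42.5-fold higher in the cell line.

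Fosl2, which encodes FRA2, ran the other way. It stood at 61.7, 54.6 and 59.4 CPM in BC57 and at 354, 356 and 376 CPM in urothelium, 5.22-fold lower in the cell line (log2 difference -2.38 ± 0.04, adjusted p = 4.77e-22). The JUN family was higher in BC57 throughout, by amounts that differed between genes. Jund, the subunit known for steady expression, stood at 277, 266 and 271 CPM against 42.8, 59.1 and 57.04 CPM (2.59 ± 0.06, adjusted p = 2.71e-19). Junb stood at 206, 192 and 200 CPM against 139, 166 and 165 CPM (0.59 ± 0.05, adjusted p = 1.26e-10), and Jun at 57.2, 55.9 and 56.8 CPM against 42.7, 42.9 and 48.3 CPM (0.58 ± 0.05, adjusted p = 5.62e-10). Jun and Junb thus had non-overlapping groups but the smallest differences of the 10 genes.

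The members outside the 2 AP-1 families were all higher in BC57. Atf3, a stress-induced partner of JUN proteins, stood at 98.6, 93.2 and 98.4 CPM against 2.97, 2.36 and 2.27 CPM (log2 difference 5.53 ± 0.08, adjusted p = 1.22e-23), a 46.2-fold difference and the largest among the members. Egr1, a zinc finger factor induced with Fos, stood at 263, 247 and 263 CPM against 14.7, 16.7 and 17.6 CPM (4.21 ± 0.05, adjusted p = 1.33e-24). Ier3, an early response gene linked to cell survival, stood at 151, 138 and 153 CPM against 28.3, 25.5 and 29.9 CPM (2.64 ± 0.05, adjusted p = 5.69e-21). In all, 10 of 10 members were called, 9 higher and 1 lower. This has to be read against a comparison in which 91.3% of 17934 genes were called, 42.8% higher and 48.5% lower. The median log2 difference was 2.62 over the 10 members and -0.12 over all genes tested.

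**Figure D1:**
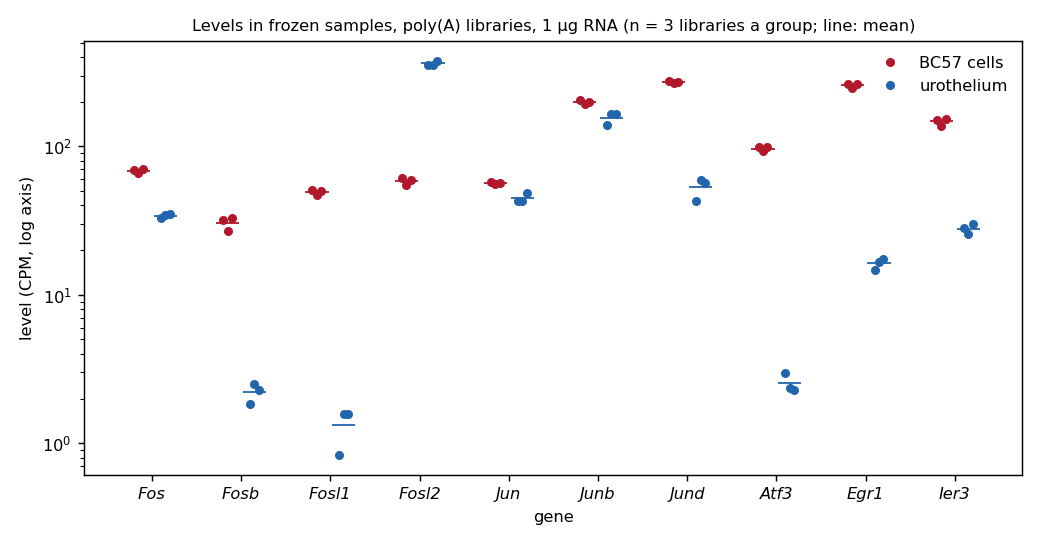
Level (CPM, log axis) of each gene in the 3 poly(A) libraries of BC57 cells (red) and of urothelium (blue), with the group mean as a line. Fosl2 is the one gene whose urothelium libraries (354 to 376 CPM) lie above those of BC57 (54.6 to 61.7 CPM).

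The frozen urothelium held other cell types than epithelium, and their part in these differences was not tested. All 6 fibroblast markers had counts there and summed to 10760 to 12182 CPM per library, against 6.04 to 8.81 CPM in BC57, beside 10931 to 12593 CPM for the 8 urothelial markers (361 to 393 CPM in BC57). The 6 smooth muscle markers summed to 240 to 272 CPM against 9.81 to 12.6 CPM, the 5 endothelial markers to 268 to 285 CPM against 0.752 to 0.970 CPM, the 6 immune markers to 170 to 178 CPM against 21.7 to 22.9 CPM, and the 4 erythroid markers to 44.97 to 52.2 CPM against 2.77 to 3.29 CPM, with Hbb-bs and Hbb-bt at 0 in BC57. In bulk RNA, fewer cells of a type and less RNA per cell cannot be told apart. The urothelial markers were lower in BC57 to different degrees: the uroplakin gene Upk3a stood at 0.0460 ± 0.0556 CPM (SD, n = 3), against 1903 ± 167 CPM in urothelium, while Upk1b stood at 199 ± 7.94 against 2587 ± 99.9 CPM and the keratin gene Krt20 at 151 ± 7.73 against 245 ± 4.83 CPM.

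Several members overlap another gene on the opposite strand, and no source used here says whether the counting used strand, so their counts are uncertain. Jund shares 877 exonic bases with Gm11175, whose log2 difference in the poly(A) libraries was 2.63 beside 2.59 for Jund, and whose counts were 41.03% of those of Jund in BC57 and 39.8% in urothelium. Fosl1 shares 1163 bases with Ccdc85b, which stood at 19.2 CPM in BC57 and 12.03 CPM in urothelium. Jun shares 232 bases with Junos, which was lower in BC57 (-1.43), and Junb shares 173 bases with Prdx2 (1.14).

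Per kilobase of exon, which allows levels to be compared between genes, the order of the members differed between the samples. In poly(A) libraries of BC57, Jund came first at 163 ± 3.28 CPM per kb (SD, n = 3), then Ier3 at 130 ± 7.31, Junb at 86.6 ± 3.23, Egr1 at 57.4 ± 2.06, Atf3 at 44.9 ± 1.42, Fos at 29.2 ± 1.06, Fosl1 at 24.3 ± 0.952, Jun at 17.8 ± 0.214, Fosl2 at 6.05 ± 0.373 and Fosb at 4.89 ± 0.510. No 2 neighbours in that order overlapped between libraries. In urothelium Junb came first at 67.9 ± 6.62 CPM per kb and Fosl2 second at 37.4 ± 1.22, followed by Jund at 31.8 ± 5.30 and Ier3 at 24.7 ± 1.95, whose libraries overlapped, as did those of Fos (14.5 ± 0.421) and Jun (13.99 ± 0.996). Egr1 (3.64 ± 0.323), Atf3 (1.18 ± 0.177), Fosl1 (0.650 ± 0.209) and Fosb (0.353 ± 0.0532) came last. In frozen Ovation urothelium libraries at 2 ng, by contrast, Fosl2 came first at 33.2 ± 2.52 CPM per kb and Junb second at 26.1 ± 0.716, with no overlap.

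Fosl2 made up 70.7% ± 0.74 (SD, n = 3) of the FOS family's CPM per kb in poly(A) urothelium and 9.39% ± 0.21 in BC57, where Fos (45.3% ± 0.48) and Fosl1 (37.7% ± 0.35) took most of it. The family's summed level differed far less there, at 64.4 ± 2.84 CPM per kb in BC57 and 52.9 ± 1.72 in urothelium. This differed between kits. In frozen libraries at 2 ng the sums were 51.1 ± 2.23 and 44.9 ± 4.01 with Ovation. With SMARTer they lay further apart, at 67.2 ± 2.44 and 39.4 ± 2.36. In the JUN family Junb led in urothelium with 59.8% ± 0.78 and Jund in BC57 with 60.9% ± 0.31, and the summed level was 267 ± 6.71 CPM per kb in BC57 and 114 ± 12.4 in urothelium. Fosl2 also held 74.0% ± 1.67 of the FOS family in frozen Ovation urothelium at 2 ng and 73.1% ± 1.07 with SMARTer. The lead of Junb in urothelium held in frozen libraries, with 44.8% ± 5.20 against 34.8% ± 5.24 for Jund with Ovation and 51.2% ± 2.05 against 30.02% ± 1.25 with SMARTer at 2 ng, though single Ovation libraries overlapped. In fixed Ovation urothelium the mean share of Jund was the higher one, at 43.04% ± 3.17 against 37.9% ± 1.79 for Junb at 2 ng, where the libraries did not overlap, 43.3% ± 6.18 against 35.95% ± 10.3 at 250 pg, where they did, and 41.1% ± 4.84 against 29.3% ± 2.41 at 50 pg. With SMARTer the means of fixed urothelium went the same way (45.3% against 33.5% at 2 ng and 42.3% against 38.2% at 250 pg), but without the libraries numbered 3 they were 40.9% against 39.9% and 41.4% against 45.8%. The split within BC57 differed between kits: Fosl1 took 63.5% ± 3.44 with SMARTer at 2 ng, against 39.5% ± 3.87 with Ovation. These shares use exon lengths of GENCODE M21 and are a description, without a test.

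**Figure D2:**
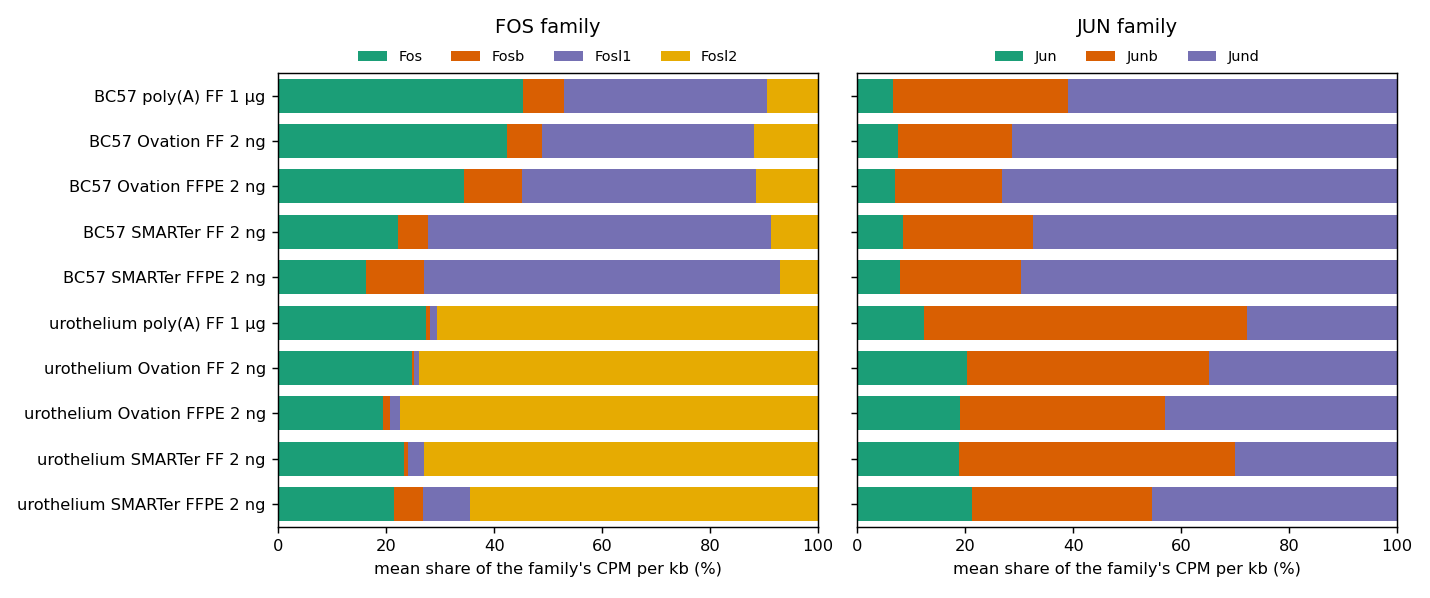
Mean share of each gene in the summed CPM per kb of the FOS family (left) and the JUN family (right), as stacked bars for the 2 ng and 1 µg groups (n = 3 libraries each). Fosl2 fills most of the FOS bars of urothelium (70.7% in poly(A)) and little of those of BC57 (9.39%).

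The same comparison was made within each kit, preservation and input, 11 times in all. All 11 draw on the same BC57 and urothelium samples, so they repeat a measurement and are not independent. Fosl2 was lower in BC57 in 11 of 11, within a narrow range of log2 differences from -2.52 to -2.05. Jund (2.15 to 3.15) and Egr1 (3.201 to 4.21) were higher in 11 of 11. With SMARTer FFPE at 250 pg the edgeR adjusted p was 0.0496 for Jund and 0.0275 for Fosl2. With the replicate number as a block both calls were lost there (0.0537 and 0.064). Fosb, Fosl1, Atf3 and Ier3 were each called higher in 10 of 11. Fos was called higher in 5, Junb in 3 and Jun in 2, the poly(A) and the frozen 2 ng SMARTer libraries. The Jun estimate was below 0 in 6 of 11, which are the 6 Ovation comparisons. In frozen Ovation libraries at 2 ng it was -0.14 ± 0.15, and limma on the deposited values, where the median of all genes was -0.30 rather than -0.06, gave -0.37 (adjusted p = 0.0242). The SMARTer call of Jun (0.29 ± 0.12, adjusted p = 0.0304) was lost without urothelium library 1 (0.0557) or BC57 library 3 (0.16).

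Counts of called members fell with the input, as did calls among all genes. In frozen Ovation libraries, 8 of 10 members were called at 2 ng (79.1% of all genes), 7 at 250 pg (48%) and 6 at 50 pg (45.2%). In fixed Ovation libraries, 9 were called at 2 ng (77.0%), 8 at 250 pg (52.2%) and 7 at 50 pg (33.5%). Frozen SMARTer libraries gave 10 at 2 ng (77.5%) and 7 at 250 pg (51.4%). Fixed SMARTer libraries gave 7 at 2 ng (30%) and 4 at 250 pg (9.38%). Without the SMARTer FFPE libraries numbered 3, 9 members were called at 2 ng (62.7% of all genes), where Fos and Junb joined, and 7 at 250 pg (21.4%), where Fosl1, Atf3 and Ier3 joined. Leaving out urothelium library 3 alone gave the same 9 and 7 calls in number, and leaving out any 1 of the others gave 3 to 5 at 2 ng and 0 to 2 at 250 pg.

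Some of these values rest on very few reads. Fosb had 0 counts in the fixed urothelium SMARTer libraries at 250 pg and 432 in those of BC57, at least 99.3-fold higher when 3 counts over the group are taken as the floor. Fosl1 had 3 counts in fixed urothelium Ovation libraries at 250 pg and 767 in BC57, a ratio of 241 with a 95% exact counting interval of 82.2 to 1172, which covers counting error only. Across the 33 urothelium libraries, Atf3 was at 0 in 9, Fosb and Fosl1 in 5 each and Ier3 in 1, while no member was at 0 in any of the 33 BC57 libraries. The call of Ier3 in fixed Ovation libraries at 50 pg (1.49 ± 0.52, edgeR adjusted p = 0.0434) was lost without any 1 of 5 libraries, and that of Fosl1 in frozen Ovation libraries at 250 pg (3.35 ± 0.94, adjusted p = 0.0173) without BC57 library 1 (adjusted p = 0.0696) or 3 (0.0559). In that last group, urothelium library 3 had Fosl1 at 11.1 CPM and Jund at 3.69 CPM, against at most 1.27 CPM and at least 26.8 CPM in the other 2 libraries. Fosb in frozen Ovation libraries at 50 pg (2.07 ± 1.11, adjusted p = 0.146) was called without urothelium library 2 (4.56, adjusted p = 0.0132), where it stood at 5.37 CPM against 0.295 and 0.359 CPM in libraries 1 and 3.

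**Figure D3:**
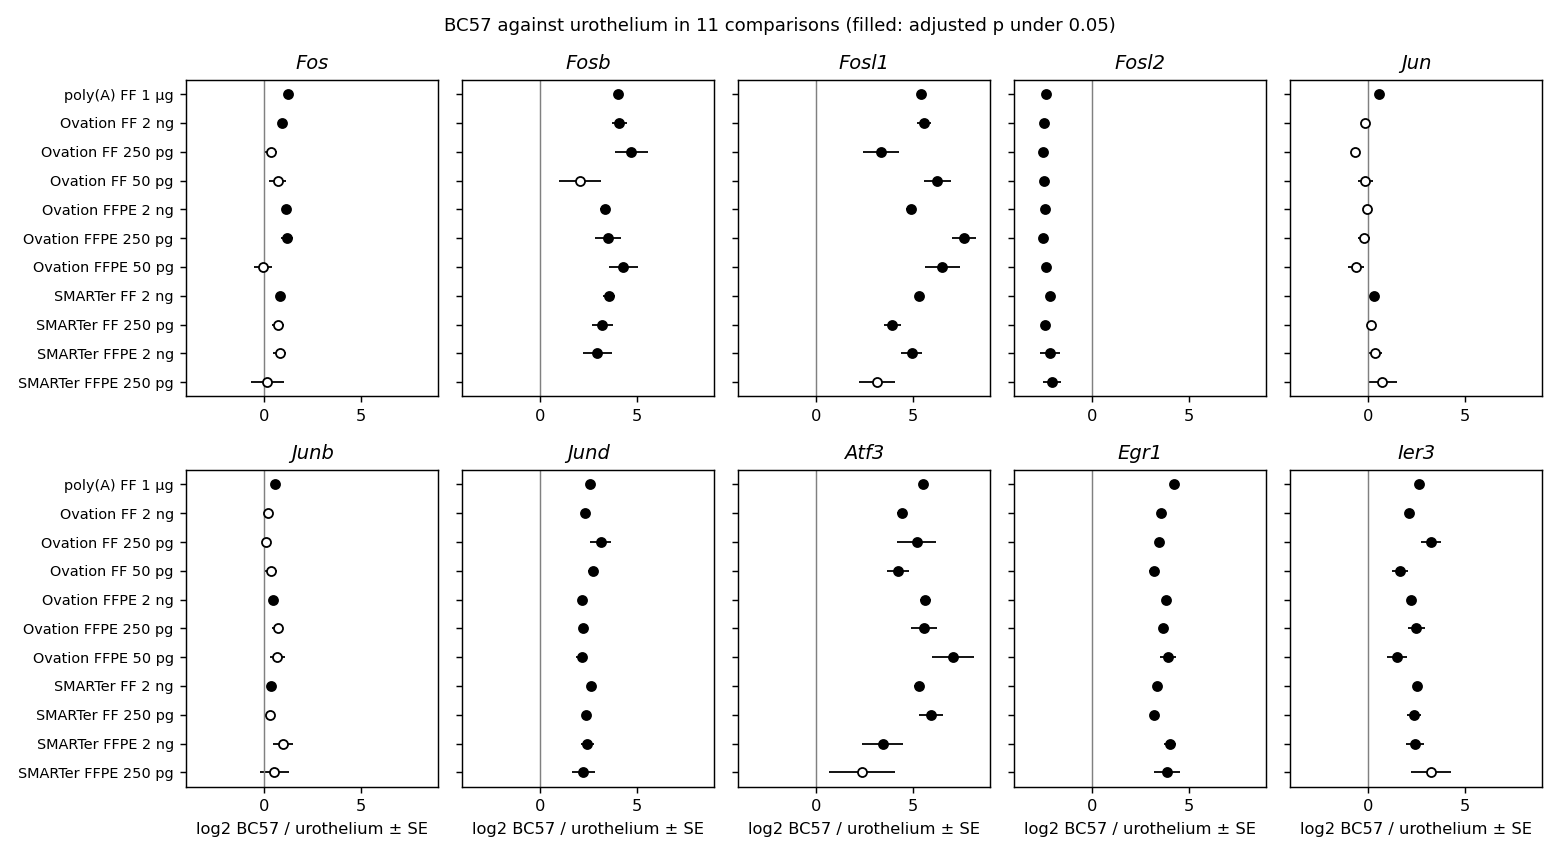
Log2 difference of BC57 against urothelium with its SE (x axis) for each gene in the 11 comparisons (y axis), filled where the adjusted p was under 0.05. Fosb is not drawn for SMARTer FFPE 250 pg, where urothelium had 0 counts. Fosl2 stays between -2.52 and -2.05, while Jun lies on both sides of 0.

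In BC57, 5 of the 10 genes rose with fixation in Ovation libraries at 2 ng, and Fosb showed the largest change. At 2 ng it stood at 44.4, 52.4 and 51.5 CPM in fixed and at 18.1, 21.7 and 21.7 CPM in frozen Ovation libraries (log2 difference of fixed and frozen 1.25 ± 0.15, edgeR adjusted p = 7.49e-08), a 2.38-fold rise. Egr1 stood at 320, 318 and 335 CPM against 220, 208 and 194 CPM (0.62 ± 0.07, adjusted p = 9.9e-09). Fosl1 stood at 66.1, 69.8 and 60.7 CPM against 40.2, 47.2 and 35.8 CPM (0.65 ± 0.13, adjusted p = 0.000152). Fosl2 stood at 85.7, 79.3 and 82.9 CPM against 59.5, 56.8 and 58.3 CPM (0.48 ± 0.11, adjusted p = 0.00056), and Atf3 at 61.1, 62.8 and 71.0 CPM against 46.4, 47.7 and 48.1 CPM (0.43 ± 0.12, adjusted p = 0.00474, and 0.0562 with DESeq2). For each of these the fixed and frozen libraries did not overlap. The 5 members called, all higher, stand beside 32.3% of 12127 genes called in either direction and 16.6% called higher. The median was 0.33 over the members and -0.00 over all genes. Fos (0.23 ± 0.12), Jun (-0.08 ± 0.15), Junb (-0.06 ± 0.11), Jund (0.07 ± 0.08) and Ier3 (0.00 ± 0.12) were not called. On the deposited log2 scale, where the median of all genes was 0.27, Jun and Junb lay above 0 (0.18 and 0.20, not called), and Fos (0.48) and Jund (0.33) were called.

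Fosb was higher in every fixed BC57 library than in every frozen one in 5 of 5 pairs of groups, and the rise was called in 4. These pairs repeat the same fixed and frozen samples and are not independent. At 250 pg with Ovation it stood at 36.4, 51.1 and 46.7 CPM against 25.4, 28.9 and 22.8 CPM (0.83 ± 0.25, adjusted p = 0.0158), a call lost without frozen library 1 (adjusted p = 0.0662), frozen library 3 (0.0856) or fixed library 2 (0.0687). At 50 pg it stood at 35.7, 66.1 and 44.3 CPM against 8.19, 6.68 and 12.7 CPM (2.40 ± 0.47, adjusted p = 0.00427), and Fosb was the 1 member called (3.96% of all genes). At 250 pg 2 members were called (15.3%), the other being Egr1 with 278, 288 and 335 CPM against 218, 219 and 209 CPM (0.51 ± 0.10, adjusted p = 0.000388).

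With SMARTer, Fosb and Egr1 rose in fixed BC57 as well, and the 3 JUN genes fell. At 2 ng Fosb stood at 51.9, 48.3 and 35.7 CPM in fixed and at 25.3, 22.5 and 21.4 CPM in frozen libraries (1.12 ± 0.17, edgeR adjusted p = 0.000467). Egr1 stood at 218, 220.95 and 174 CPM against 163, 158 and 178 CPM (0.45 ± 0.10, adjusted p = 0.00856), with overlapping libraries. Jun stood at 45.1, 37.3 and 31.5 CPM against 51.5, 53.6 and 71.5 CPM (-0.47 ± 0.15, adjusted p = 0.0427). Junb stood at 90.0, 82.7 and 60.5 CPM against 114, 113 and 139 CPM (-0.50 ± 0.13, adjusted p = 0.0151), and Jund at 176, 166 and 182 CPM against 273, 215 and 254 CPM (-0.35 ± 0.12, adjusted p = 0.0488). The fixed JUN libraries lay below the frozen ones for all 3 genes. The 5 calls, against 17.8% of all genes, depended on single libraries: the Jun call was lost without any 1 of the 6, that of Jund without any 1 except fixed library 3, that of Junb without any 1 of the frozen libraries and that of Egr1 without frozen library 1 or 2. Without fixed library 3, 4 members were called (18.9% of all genes), and Jun was not (-0.40, edgeR adjusted p = 0.0782). On the deposited log2 scale, where the median of all genes was 0.20, the JUN genes were not called (-0.29, -0.32 and -0.15 for Jun, Junb and Jund). Same-numbered libraries deviated together here, although no label says that the numbers pair libraries. With the replicate number as a block, the edgeR adjusted p was 0.0138 for Jun, 0.00066 for Junb, 0.00532 for Jund and 0.000404 for Egr1. Atf3 (0.35) was then also called, with an adjusted p of 0.0449 in place of 0.0673. At 250 pg, 0 members were called with edgeR, DESeq2 or limma (2.20% of all genes with edgeR), and 2, Fosb and Atf3, had an unadjusted p under 0.05. Without fixed library 3, 0 were called with edgeR (2.40% of all genes). The fixed libraries again lay below the frozen ones for Jun (-0.61 ± 0.30), Junb (-0.45 ± 0.22) and Jund (-0.30 ± 0.18). Whether the JUN genes respond to fixation differently with the 2 kits was not tested.

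In urothelium most members could be followed through fixation. With Ovation at 2 ng, 7 members passed the filter on low counts (Fosb, Fosl1 and Atf3 did not), and 1 was called against 37.3% of all genes. This was Fosl2, at 454, 422 and 430 CPM in fixed and 298, 319 and 347 CPM in frozen libraries (0.46 ± 0.07, edgeR adjusted p = 1.75e-07), which did not overlap. Egr1 stood at 19.3, 26.3 and 22.6 CPM against 17.2, 15.6 and 19.01 CPM (0.41 ± 0.22, adjusted p = 0.137). Fosb, untested, stood at 2.62, 4.52 and 7.10 CPM against 2.09, 1.51 and 0 CPM. In the same libraries the 6 fibroblast markers summed to 12902 to 13046 CPM in fixed and 9354 to 9634 CPM in frozen urothelium, and the 8 urothelial markers to 4672 to 4883 and 6486 to 6587 CPM. Their part in the Fosl2 difference was not tested.

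No member was called in the other urothelium pairs with edgeR. With Ovation, 0 of 7 tested were called at 250 pg (3.30% of all genes), where Fosl2 alone had an unadjusted p under 0.05, and 0 of 7 at 50 pg (3.98%), where none had. With SMARTer, 0 of 9 were called at 2 ng (1.87%), where Jun and Junb had an unadjusted p under 0.05 and DESeq2 called 1, and 0 of 8 at 250 pg (0%), where none had. Except for that 1, DESeq2 and limma called 0 too. Without the libraries numbered 3, Junb was called lower in fixed urothelium with SMARTer at 2 ng (-0.79, adjusted p = 0.00179, against -1.14 and 0.167 with them), beside 27.5% of all genes called. At 250 pg without them, 1.99% of all genes were called and the members' adjusted p ran from 0.293 (Jun, -1.02) to 0.912 (Fos, 0.18). Junb was estimated lower in fixed urothelium in 5 of 5 pairs of groups (-1.14 to -0.30), and at 250 pg with SMARTer it was -0.23 without those libraries. The pairs repeat the same fixed and frozen samples and are not independent.

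The fixation effect was compared directly between urothelium and BC57 at 2 ng. With Ovation, 0 of 10 members differed with edgeR, DESeq2 or limma (5.90% of all genes with edgeR), and 0 had an unadjusted p under 0.05. The difference of the effects was -0.00 for Fosl2, with a 95% interval of -0.18 to 0.18, and -0.20 for Egr1 (-0.57 to 0.18). For Fosb, with few reads in urothelium, it was 0.82 with a wide interval of -0.36 to 2.00. Fosb, Fosl1 and Atf3 did not pass the filter in urothelium alone, so their results here say little. They had 7, 5 and 13 counts over the frozen and 42, 19 and 11 over the fixed urothelium libraries. With SMARTer, 0 of 10 differed with the same tools (0% of all genes with edgeR), and 1, Egr1, had an unadjusted p under 0.05 (-0.74, interval -1.38 to -0.11, adjusted p = 0.569). Atf3 had 19 counts over the frozen and 32 over the fixed urothelium libraries, and did not pass the filter in urothelium alone. Without the libraries numbered 3, the Egr1 difference was -0.84 with an adjusted p of 0.0532, beside 3.24% of all genes called.

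**Figure D4:**
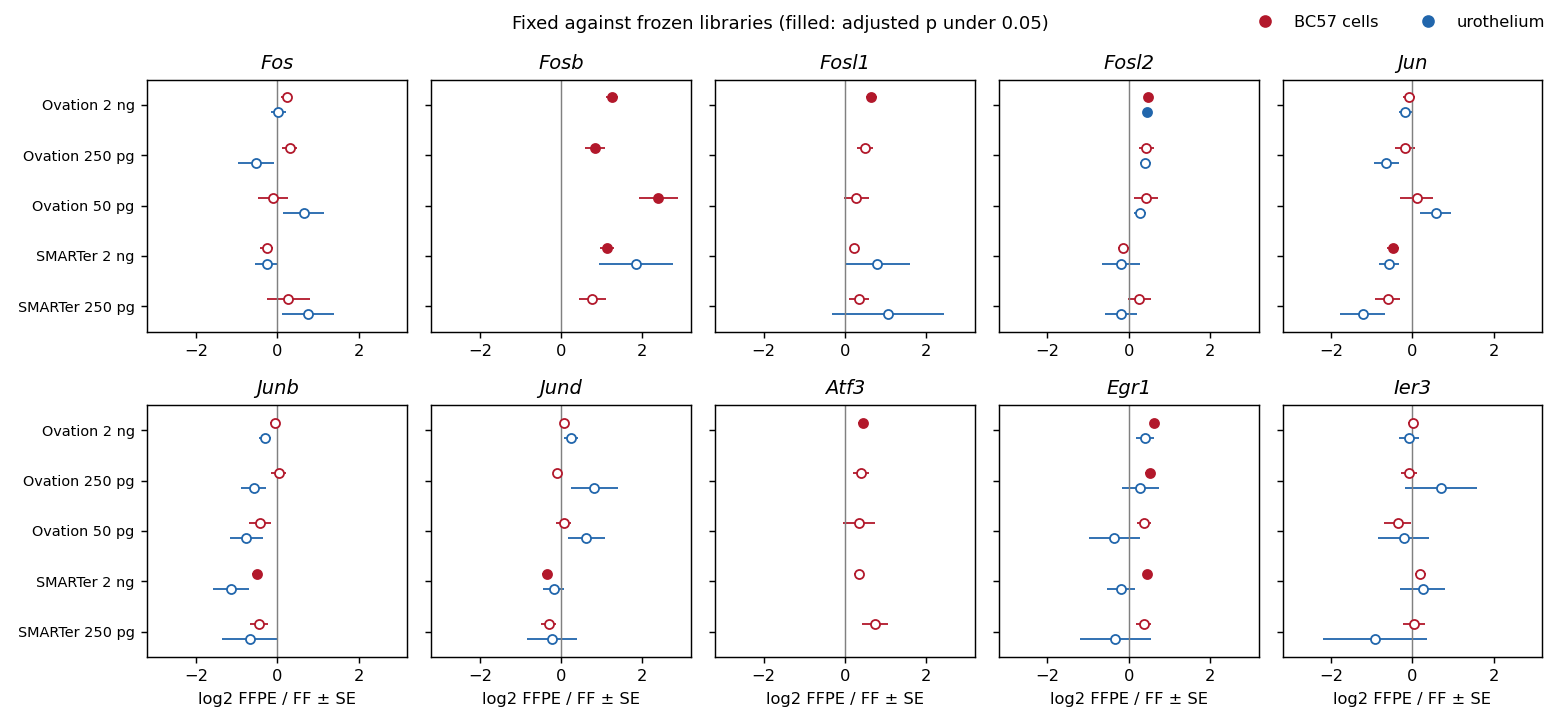
Log2 difference of fixed against frozen libraries with its SE (x axis) for each gene by kit and input (y axis), in BC57 cells (red) and urothelium (blue), filled where the adjusted p was under 0.05; genes that did not pass the filter on low counts are not drawn. Fosb lies right of 0 in BC57 in all 5 rows (0.77 to 2.40).

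Cutting the input from 2 ng to 50 pg of RNA with Ovation moved no member past the threshold with edgeR. In frozen BC57 0 of 10 were called (0.0266% of all genes), and Fosb, Fosl1 and Junb had an unadjusted p under 0.05. Fosb went from 18.1, 21.7 and 21.7 CPM to 8.19, 6.68 and 12.7 CPM (-1.03 ± 0.38, adjusted p = 0.636). In fixed BC57 0 of 10 were called (0%), with none under an unadjusted 0.05. In urothelium 0 of 7 were called in frozen (0%) and 0 of 8 in fixed libraries (0.0216%), where Jun alone had an unadjusted p under 0.05. DESeq2 called 0 in all 4, while limma on the deposited values called 3 in fixed BC57 (10.4% of all genes) and 1 in fixed urothelium (2.90%). The spread between libraries was wider at 50 pg than at 2 ng. Among members with a mean of at least 20 CPM, the median coefficient of variation in BC57 was 5.61% at 2 ng and 14.5% at 50 pg in frozen libraries, and 7.57% and 27.1% in fixed ones. It was 3.68% in the poly(A) libraries of BC57. In frozen Ovation urothelium it was 10.4% at 2 ng and 22.4% at 50 pg. In fixed Ovation urothelium it was 14.15% and 18.8%, with 23.5% at 250 pg. Frozen BC57 libraries 1 and 3 at 50 pg were also shallow (928722 and 1379992 counts), so input and depth are mixed there.

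Members differed between kits within the same RNA, as did many other genes. The libraries of each kit form a set of their own, so the kit and any other difference between the sets cannot be told apart. Between SMARTer and Ovation at 2 ng, 7 of 10 were called in frozen BC57 (52.9% of all genes) and 5 in fixed BC57 (34.4%). Without SMARTer FFPE library 3, 6 were called in fixed BC57 (37.2%), where Jun joined (0.47, edgeR adjusted p = 0.036). In frozen BC57 Fosl1 stood at 78.5, 88.3 and 94.0 CPM with SMARTer and at 40.2, 47.2 and 35.8 CPM with Ovation (1.10 ± 0.12, adjusted p = 3.89e-08). Jun (0.77 ± 0.13), Junb (0.82 ± 0.09) and Jund (0.55 ± 0.09) were also higher with SMARTer, while Fos (-0.51 ± 0.13), Egr1 (-0.31 ± 0.08) and Ier3 (-0.42 ± 0.11) were lower. In urothelium 4 were called in frozen libraries (48.5%), Junb (0.71 ± 0.12) and Jun (0.38 ± 0.14) higher and Fosl2 (-0.28 ± 0.07) and Ier3 (-0.82 ± 0.26) lower. In fixed urothelium 0 of 8 tested were called with edgeR or DESeq2 (1.13% with edgeR), and none had an unadjusted p under 0.05; without the libraries numbered 3, Fosl2 was lower with SMARTer (-0.55, adjusted p = 1.56e-05), beside 27.9% of all genes called.

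Against poly(A) libraries, Ovation gave 6 members called in BC57 (59.9% of all genes) and 4 in urothelium (56.7%), and SMARTer gave 9 (57.5%) and 6 (57.7%). Here 2 ng of RNA was set against 1 µg, at lower depth than in the poly(A) libraries. Kit, input and depth therefore cannot be told apart. Junb differed most with Ovation: it stood at 69.4, 72.0 and 67.2 CPM in BC57 against 206, 192 and 200 CPM with poly(A) (-1.18 ± 0.06, edgeR adjusted p = 2.25e-14), and was lower in urothelium too (-0.96 ± 0.09). Ier3 was lower with both total RNA kits in both samples: -0.75 ± 0.07 and -0.39 ± 0.16 with Ovation, and -1.15 ± 0.06 and -1.18 ± 0.16 with SMARTer, in BC57 and urothelium. Fosl1 was higher with SMARTer than with poly(A) in BC57 (1.19 ± 0.06) and urothelium (1.15 ± 0.41, adjusted p = 0.0209, and 0.279 without SMARTer urothelium library 1). The Ier3 call in urothelium with Ovation (adjusted p = 0.0328) was lost without Ovation library 2 (0.103) or 3 (0.07), or poly(A) library 1 (0.0657) or 3 (0.0902). Fosl2 shows how much such values depend on scaling across kits: with Ovation it was called higher in urothelium (0.25 ± 0.06), although its level scaled over all 66 libraries was lower (298, 319 and 347 CPM against 354, 356 and 376 CPM). These comparisons share libraries with each other and are not independent.

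Genes around the members in the same pathways were followed as lists. In the poly(A) libraries, 19 of 30 tested other immediate early genes were higher in BC57 and 8 lower, with a median log2 difference of 0.79 against -0.12 over all genes, of which 42.8% were higher and 48.5% lower. Ccn1, a secreted matricellular protein, stood at 266 ± 12 CPM (SD, n = 3) against 3.17 ± 0.668 CPM, Arc at 15.8 ± 0.966 against 0.597 ± 0.00366 CPM and Tnfaip3, an inhibitor of NF-kappaB signalling, at 96.6 ± 5.24 against 7.30 ± 0.368 CPM, while the nuclear receptor gene Nr4a3 was lower (0.158 ± 0.0949 against 3.004 ± 0.591 CPM). Of 10 AP-1 partners, 3 were higher and 3 lower (median 0.01), with Batf3 (3.32) and Jdp2 (3.05), a repressor that pairs with JUN, higher and Batf (-1.38) lower. Of 16 upstream kinases and factors, 10 were higher and 5 lower (median 0.30): the serum response coactivator Mrtfa (1.25) and the kinase Map2k4 (0.92) were higher, and Elk4 (-1.08) and the kinase Mapk3 (-1.06) lower.

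Of 11 ERK feedback and output genes, 6 were higher and 5 lower (median 0.29). Those named by size were all higher: Etv4 (5.71), Errfi1 (1.84) and the ERK phosphatases Dusp5 (4.63) and Dusp6 (1.69). Of 13 textbook AP-1 target genes, 9 were higher and 3 lower (median 2.88), led by Spp1, which encodes osteopontin, at 308 ± 8.86 CPM against 0.589 ± 0.176 CPM, and the matrix metalloproteases Mmp10 (5.31), Mmp3 (4.19) and Mmp13 (3.74), each below 4 CPM in both samples. Heat shock genes split evenly, 5 higher and 5 lower of 11 (median -0.05): Hsp90aa1 (2.89), Hspd1 (2.65) and Hspe1 (1.68) were higher, and the inducible Hspa1a was lower, at 2.49 ± 0.339 CPM against 64.4 ± 1.14 CPM in urothelium (-4.49).

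Under fixation the same lists were followed in the 2 ng Ovation libraries. Of all genes, 16.6% rose and 15.6% fell in BC57, and 19.3% rose and 17.9% fell in urothelium, which are the shares to read the counts against. In BC57, 5 of 28 tested other immediate early genes were higher and 4 lower (median 0.11), near the shares of all genes: Nfkbiz (0.63) and Zfp36 (0.58) rose, and Ccn1 (-0.50) and Plk2 (-0.49) fell. Of 6 AP-1 partners tested, 5 rose, among them Atf7 (0.99), Mafk (0.48) and Atf2 (0.48), and Jdp2 fell (-0.46). Of 16 upstream genes, 6 rose, among them Elk1 (0.89), and 1 fell, Rps6ka1 (-0.53). Of 10 feedback genes 2 rose, Spred2 (0.71) and Dusp5 (0.34), and of 9 AP-1 targets Cd44 rose (0.19) and Spp1 fell (-0.26). Heat shock genes fell in 6 of 11 and rose in none (median -0.40), led by Hsp90aa1 (-1.03), Hspd1 (-0.82), Hsph1 (-0.75) and Hspa8 (-0.49).

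In urothelium, 3 of 27 other immediate early genes rose and 1 fell (median -0.07), beside 37.3% of all genes called in either direction, with Nr4a2 (1.34), Zfp36 (0.44) and Btg2 (0.27) higher and Sik1 (-0.36) lower. Of 8 AP-1 partners 4 rose, Atf7 (1.10), Maf (0.79), Mafg (0.59) and Atf2 (0.30), and none fell. Of 16 upstream genes 6 rose and 2 fell, of 9 feedback genes 3 rose and 2 fell, and of 6 AP-1 targets 1 rose and 1 fell. Heat shock genes fell in 9 of 11 (median -0.67), among them Hsp90aa1 (-1.76) and Hspd1 (-1.20). The medians over all genes in these comparisons were -0.00 in BC57 and 0.00 in urothelium.

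Over the means of the 12 Ovation groups, the gene most like each member among 10448 genes was found by Pearson's r of log levels, as a description. It was Utp15 for Fos (0.960), Zfas1 for Fosb (0.992), Cnih4 for Fosl1 (0.992), Msi2 for Fosl2 (0.998), Gaa for Jun (0.881), Ecd for Junb (0.985), Usp6nl for Jund (0.995), Kif11 for Atf3 (0.997), Klf6 for Egr1 (0.997) and Ctdp1 for Ier3 (0.992). Each series of 12 points holds 6 groups of BC57 and 6 of urothelium, so any gene with a large difference between the 2 samples scores high. Klf6 is itself an early response gene.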

How the data were processed

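RNA was sequenced as paired reads of 100 nucleotides, per the labels' protocols. Per the submitters' processing notes, STAR, SAMtools and featureCounts were used with the mouse build mm10; no source used here gives their versions, the annotation or the strand setting. The authors deposited raw read counts per Ensembl gene for each kit, and log2 normalized values, which were recomputed from the counts to within 5.33e-14. Gene symbols came from GENCODE M21 (GRCm38, the same assembly as mm10).

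Counts were tested with edgeR 4.0.16 (R 4.3.3; filterByExpr, TMM, quasi-likelihood test, Benjamini-Hochberg adjustment over all genes tested), in 35 comparisons. Of these, 2 were interactions, which used the fixed and frozen groups of both samples, and the rest set 3 against 3 libraries. For 1 gene, 3 against 3 libraries cannot reach an exact permutation p below 0.1. SE is the log2 difference over the square root of F, and intervals span 1.96 SE. Alternatives were RLE size factors, DESeq2 1.42.0, no filter, limma 3.58.1 on the deposited log2 values, equal depth, a replicate block and leaving out libraries. The scripts were tested on simulated data.

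The members and lists were chosen with earlier results of these data known. All members are named; of other lists, up to 4 called genes with the largest differences in the poly(A) and the 2 ng Ovation fixation comparisons. One gene that this rule names is not reported here. Same-numbered libraries deviated together (every r above 0.1) in BC57 against urothelium with SMARTer FFPE 2 ng (0.250, 0.243 and 0.353) and in fixed against frozen BC57 with SMARTer 2 ng (0.220, 0.160 and 0.282), where the numbers were taken as pairs from the data alone, and not in the other comparisons checked. In the first of these, libraries with different numbers reached an r of 0.23, nearly as high, so these values hardly set same-numbered pairs apart. In the second they reached 0.011. The block left the 7 calls of the first at 7.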

Additional observations from a re-analysis of the deposited data

How the results depend on the processing

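No member's log2 difference changed direction past the threshold under an alternative: 3864 values kept their side of the threshold, 113 lost it and 54 gained it. Members called in BC57 against urothelium with SMARTer FFPE 250 pg went from 4 to 7 with no filter (7.77% of all genes called), to 2 with the replicate block (6.62%) and to 7 without the libraries numbered 3 (21.4%), against 9.38%. Under fixation, the 1 call in urothelium with Ovation 2 ng became 2 with DESeq2 (23.4%), with no filter (21.1%) and with limma (37.4%). The 5 calls in BC57 with SMARTer 2 ng became 1 with limma (4.90%) and 3 at equal depth (15.7%), and the 0 in urothelium with SMARTer 2 ng became 1 with DESeq2 (10.6%) and 1 without the libraries numbered 3 (27.5%). SMARTer against Ovation in fixed urothelium went from 0 to 1 without those libraries (27.9%). With limma, 50 pg against 2 ng gave 3 in fixed BC57 (10.4%) and 1 in fixed urothelium (2.90%). On the deposited log2 scale the median of all genes was -0.58 and -0.60 in those 2 comparisons, and 0.27 for fixed against frozen BC57 with Ovation 2 ng, against 0.03, 0.04 and -0.00 with TMM. On that scale Egr1 rose by 0.89 and Fosb by 1.52 there, and Jun (0.18) and Junb (0.20), which were not called, were above 0.

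Leaving out 1 library gave 3 to 9 calls in BC57 against urothelium with SMARTer FFPE 2 ng, 0 to 7 at 250 pg, 1 to 3 in fixed BC57 with Ovation 250 pg, 1 to 4 in fixed BC57 with SMARTer 2 ng, 1 to 3 in fixed urothelium with Ovation 2 ng and 0 to 1 with SMARTer 2 ng. It gave 2 to 4 for Ovation and 3 to 6 for SMARTer against poly(A) in urothelium, and 0 to 1 for SMARTer against Ovation in fixed urothelium. The 5 calls in fixed BC57 with Ovation 2 ng remained 5 in number throughout. Fosb, Fosl1 and Atf3 had median counts of 6, 5 and 5 over the 33 urothelium libraries, which limits the precision of their values there.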
